A study of Mus musculus with 4 samples.

Results

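The canonical Wnt pathway was followed here through 10 mouse genes taken by symbol, namely Ctnnb1, Apc, Axin1, Axin2, Gsk3b, Tcf7, Tcf7l2, Lef1, Fzd7 and Lrp6. All 10 had a row among the 23552 genes of the expression table. RNA-Seq had been performed on c-Kit+ cells, the fraction in which leukemia stem cells are enriched, from the bone marrow of moribund mice with MLL-AF9-driven acute myeloid leukemia (AML). Every library carried the MLL-AF9 fusion on the C57BL/6 strain and came from serially transplanted cells that were sorted for eGFP after lentiviral transduction, at the P1 passage per the study. The 2 control libraries (replicates 3 and 4) came from cells overexpressing eGFP alone, and the 2 SUV-OE libraries (replicates 2 and 3) from cells overexpressing the H3K9 methyltransferase Suv39h1 together with eGFP. The recipients were young adult females per the study. The labels do not give the time of sampling or say whether each library was 1 animal or a pool, so p-values measure only the spread between these libraries, which may be technical. The question asked of these libraries was which genes change in leukemia stem cells when Suv39h1 is restored.

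In the canonical branch of the pathway, a secreted Wnt ligand binds a Frizzled receptor and an LRP co-receptor. Without ligand, a destruction complex of Axin, APC and GSK3 marks beta-catenin for degradation. With ligand, beta-catenin accumulates, enters the nucleus and binds the TCF/LEF factors, which turn on targets such as Axin2, a negative feedback gene. In MLL-rearranged AML, beta-catenin is known for its part in the self-renewal of leukemia stem cells. Most of this regulation acts on the protein, which RNA levels do not report.

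Recovered from the steps between FPKM values (fragments per kilobase of exon, scaled to a total for each library), the depth was 19912053 to 23361380 reads a library, and an FPKM of 0.154 to 0.178 corresponded to 3 reads on 1 kb of exons. Intervals on reads cover counting error only. The targeted gene, Suv39h1, had an FPKM of 12.4 and 12.4 in control, against 75.3 and 81.2 in SUV-OE (log2 fold change 2.56, limma adjusted p = 0.00866). Kit, the surface marker of the sort, was at 20.4 and 19.2 in control, against 28.6 and 25.4 in SUV-OE. The myeloid progenitor genes Mpo and Elane were abundant in all 4 libraries. A list of 12 leukemic progenitor genes, Kit, Mpo and Elane among them, summed to 5389 and 5974 in control, against 3920 and 4678 in SUV-OE. Libraries stood apart in other lineages too. Markers of the B lineage summed to an FPKM of 22.4 and 31.6 in control, against 50.8 and 122.7 in SUV-OE. Those of neutrophils and monocytes summed to 1097 and 2983 in control, against 6897 and 8370 in SUV-OE, so control replicate 3 held the least of both.

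Among the 10 genes, messages of the cytoplasmic core of the pathway were abundant, whereas those of the TCF/LEF factors and the feedback gene were scarce. Averaged over the 4 libraries, the FPKM, a level per length, was 47.8 for Ctnnb1, 20.4 for Axin1, 10.9 for Gsk3b, 6.73 for Lrp6 and 4.61 for Apc. It was 2.57 for Fzd7, 0.833 for Tcf7, 0.328 for Tcf7l2, 0.268 for Lef1 and 0.216 for Axin2. The ranges of neighbours in this order did not overlap down to Tcf7l2, while Tcf7l2 overlapped Lef1 and Lef1 overlapped Axin2. Tcf7l2, Lef1 and Axin2 were below the mean FPKM of 0.5 required for the main test, so 7 of the 10 were tested there.

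**Figure D1:**
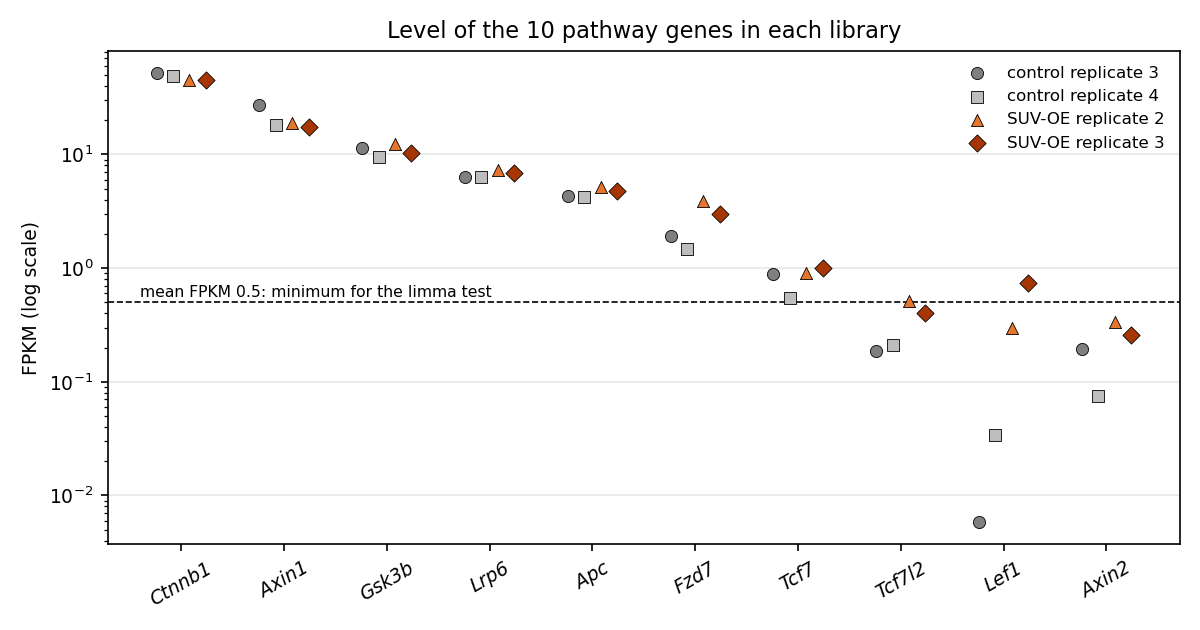
FPKM of the 10 genes (log axis) in each of the 4 libraries, ordered by mean level, with 1 symbol per library and the dashed line at the mean FPKM of 0.5 required for the limma test. Ctnnb1 lies between 45.0 and 51.9 in every library, while Lef1 spans 0.00585 to 0.736.

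Expression was compared with limma on log2(FPKM + 1), a scale on which the changes of low genes are understated. A gene was called at a Benjamini-Hochberg adjusted p under 0.05 over all 13736 tested genes and a log2 fold change of at least 1 in either direction, the thresholds of the study. Of the 7 pathway genes tested, 0 were called, beside 1.22% of all tested genes (168 genes, Suv39h1 among them). With any 1 of the 4 libraries left out, no gene was called by limma, Suv39h1 included. At an unadjusted p under 0.05 there was 1 of the 7, Fzd7, beside 20.7% of all tested genes, and by limma-voom 1 of 10 was called. Their median log2 fold change was 0.13, and that of all tested genes was -0.02.

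All 10 genes could be tested by limma-voom, which was run on recovered reads, required 10 of them on average, and does not shrink folds by a pseudocount of that size. Here 1 of 10, Lef1, was called (3 at an unadjusted p under 0.05, Lef1, Tcf7l2 and Fzd7, beside 24.5% of all genes), beside 4.66% of the 14281 genes tested (666 genes, but 71 without control replicate 3), or 3.56% called higher in SUV-OE. The 10 genes had a median log2 fold change of 0.33, beside -0.01 for all genes in that fit. In 7 of the 10 genes the lower SUV-OE value exceeded the higher control value, and in 1, Ctnnb1, the order was the reverse. Of all genes in that fit, 27.8% were separated upwards and 28.1% downwards. With 2 libraries against 2, an exact permutation test of a single gene cannot give a two-sided p under 0.333.

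**Figure D2:**
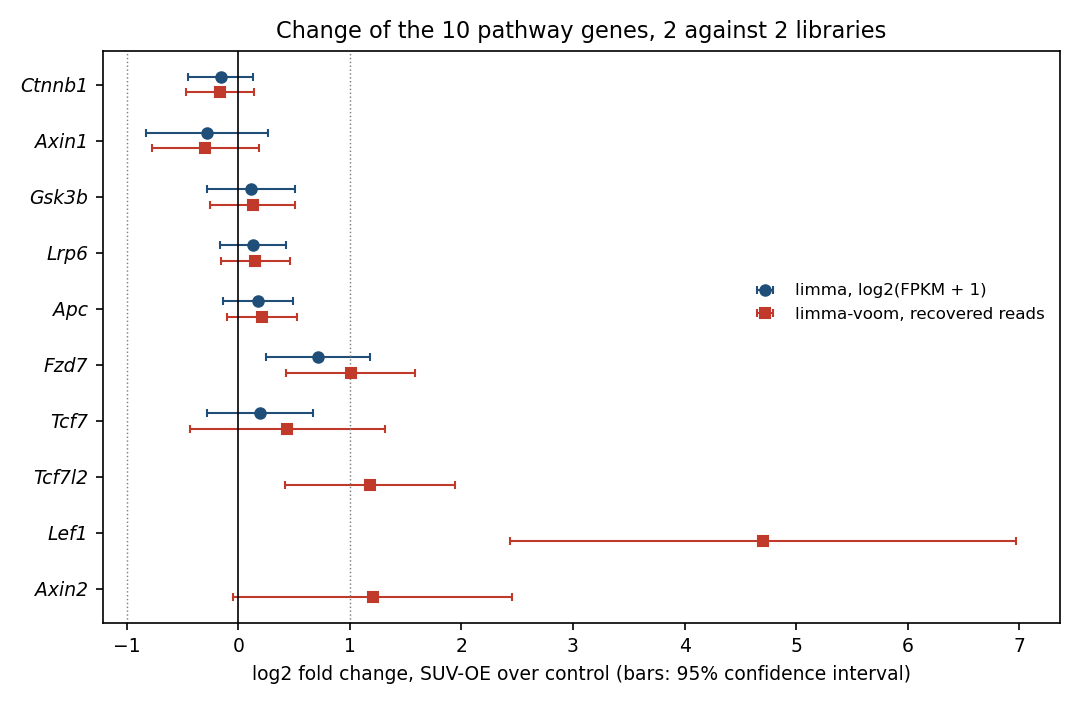
Log2 fold change of SUV-OE over control for the 10 genes, from limma on log2(FPKM + 1) (circles, the 7 genes above the FPKM minimum) and from limma-voom on recovered reads (squares, all 10). Bars are 95% confidence intervals and dotted lines mark a log2 fold change of 1 in either direction. By limma-voom the interval of Lef1 runs from 2.44 to 6.97, while that of Ctnnb1 runs from -0.47 to 0.14.

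Fzd7 encodes a Frizzled receptor for Wnt ligands and is a gene of chromosome 1 (ENSMUSG00000041075, 59482424 to 59486955, plus strand, mm10). It had an FPKM of 1.92 and 1.48 in control, against 3.92 and 2.97 in SUV-OE, from 169, 113, 315 and 239 recovered reads. The groups were separated, and the ratio of mean FPKM was 2.03. The log2 fold change on the log2(FPKM + 1) scale was 0.72 (SE 0.18, 95% interval 0.25 to 1.18) and did not pass the test (limma adjusted p = 0.139). By limma-voom it was 1.01 (SE 0.24, adjusted p = 0.060), so Fzd7 fell short of the threshold in both fits. Leaving out 1 library at a time kept the log2 fold change in the limma fit between 0.56 and 0.87.

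Lrp6 encodes the co-receptor that recruits Axin to the membrane (ENSMUSG00000030201, chromosome 6, 134446476 to 134566965, minus strand). Its FPKM was 6.38 and 6.36 in control versus 7.37 and 6.81 in SUV-OE. The groups were separated narrowly, and the difference did not pass the test (log2 fold change 0.13, SE 0.11, 95% interval -0.16 to 0.43, limma adjusted p = 0.550). Its paralog Lrp5 was at 11.7, 8.20, 10.2 and 8.38 in the same order of libraries. The 2 co-receptors together gave an FPKM of 18.1 and 14.6 in control, against 17.6 and 15.2 in SUV-OE, a ratio of means of 1.0, so here the groups overlapped.

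Of the 9 Frizzled genes of the table (Fzd1 to Fzd9), limma-voom tested 6 and called Fzd1 and Fzd4 (3.56% of all genes were called higher). Limma tested 4 and called 0, with 2, Fzd1 and Fzd7, at an unadjusted p under 0.05 (20.7% of all genes). After the values of its members were seen, the family was summed without a test to an FPKM of 4.60 and 3.75 in control, against 8.60 and 8.94 in SUV-OE, a ratio of means of 2.10. Fzd7 made up 41.7% and 39.4% of that sum in control versus 45.5% and 33.2% in SUV-OE, and it was the largest share in each library. Fzd1 was at 0.686 and 0.424 in control, against 1.53 and 2.43 in SUV-OE. Fzd4, the receptor that also binds Norrin, was at 0.0535 and 0.115 in control, against 0.612 and 0.778 in SUV-OE. The limma-voom log2 fold change was 1.81 for Fzd1 (adjusted p = 0.042) and 3.09 for Fzd4 (adjusted p = 0.0164), the latter on 7 and 13 reads in control. In the main fit, Fzd1 had a log2 fold change of 0.93 (limma adjusted p = 0.128) and Fzd4 was below the FPKM minimum. Fzd3 (0.632, 0.645, 1.16 and 1.02) was separated upwards without a call, and Fzd5 (0.818, 0.771, 0.774 and 1.15) and Fzd9 (0.381, 0.258, 0.369 and 0.221) overlapped between groups. Without control replicate 3, Fzd4 was no longer called (2.54, limma-voom adjusted p = 0.0873). The call of Fzd1 ended in 3 of the 4 fits that left a library out, with a limma-voom adjusted p of 0.114 without control replicate 3, 0.102 without control replicate 4 and 0.106 without SUV-OE replicate 3. Fzd2, Fzd6 and Fzd8 stayed under an FPKM of 0.218 in every library.

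**Figure D3:**
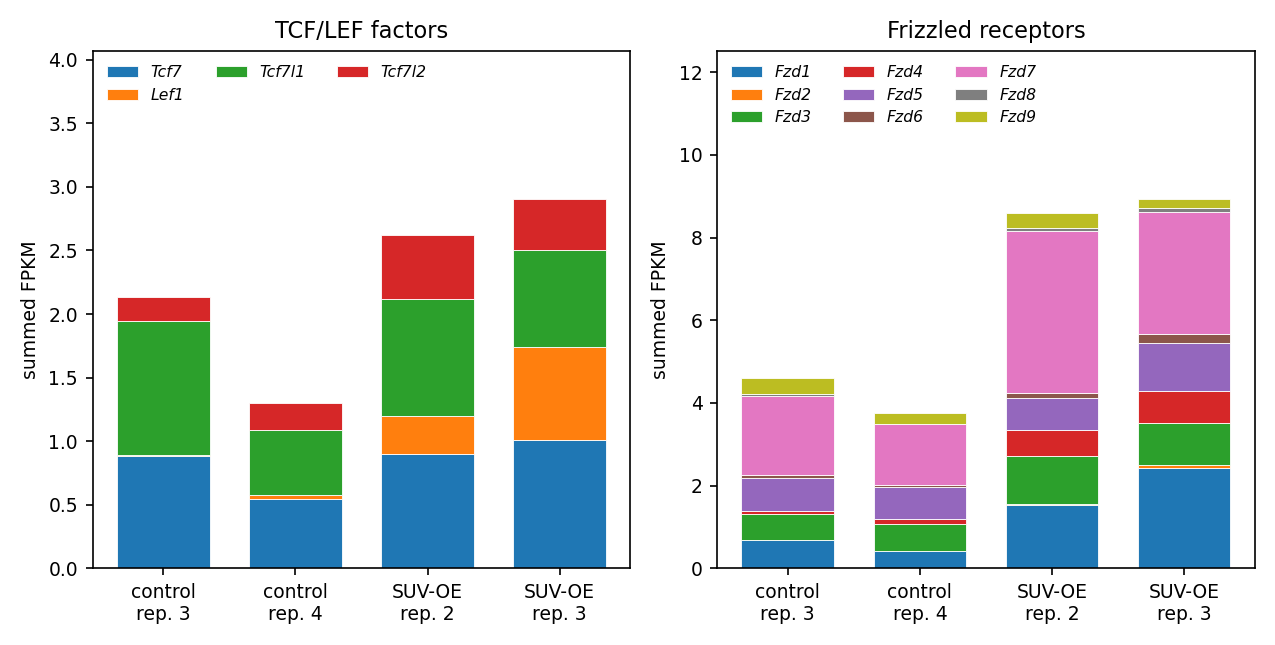
Summed FPKM of the 4 TCF/LEF genes (left) and the 9 Frizzled genes (right) in each library, with each colour 1 gene and both axes starting at 0. The Frizzled sum is 4.60 and 3.75 in control versus 8.60 and 8.94 in SUV-OE, and the Lef1 segment is visible mainly in the SUV-OE bars.

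Of the destruction complex genes tested, Apc, Axin1 and Gsk3b, none was called by limma or limma-voom, and none had an unadjusted p under 0.05 in either fit. Apc encodes its large scaffold and tumor suppressor (ENSMUSG00000005871, chromosome 18, 34220924 to 34322552, plus strand). Its FPKM was 4.34 and 4.19 in control versus 5.17 and 4.72 in SUV-OE, a separation of the groups that gave a log2 fold change of 0.17 (SE 0.12, 95% interval -0.14 to 0.49, limma adjusted p = 0.468).

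Axin1, the scaffold that limits assembly of the complex (ENSMUSG00000024182, chromosome 17, 26138688 to 26195811, plus strand), was at 27.1 and 18.2 in control, against 18.9 and 17.3 in SUV-OE. Control replicate 3 was high, and the other 3 libraries lay within 17.3 to 18.9. The log2 fold change was -0.28 (SE 0.21, 95% interval -0.83 to 0.26, limma adjusted p = 0.498). It was -0.0060 without control replicate 3 and -0.56 without control replicate 4, so control replicate 3 set the value.

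Gsk3b encodes a kinase that phosphorylates beta-catenin for degradation (ENSMUSG00000022812, chromosome 16, 38089001 to 38246084, plus strand). It was at 11.3 and 9.42 in control, against 12.4 and 10.3 in SUV-OE, so the groups overlapped (log2 fold change 0.12, SE 0.15, 95% interval -0.28 to 0.51, limma adjusted p = 0.693). Its paralog Gsk3a was the more abundant, at 35.4 and 23.8 in control versus 31.2 and 29.3 in SUV-OE. Gsk3b made up 24.3% and 28.3% of the pair in control versus 28.4% and 26.1% in SUV-OE.

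Ctnnb1, the gene of beta-catenin itself (ENSMUSG00000006932, chromosome 9, 120929216 to 120960507, plus strand), had an FPKM of 51.9 and 49.1 in control, against 45.0 and 45.2 in SUV-OE. It was the only one of the 10 genes whose 2 SUV-OE values were the lowest. The ratio of mean FPKM was 0.893, and the log2 fold change of -0.16 (SE 0.11, 95% interval -0.45 to 0.14) did not pass the test (limma adjusted p = 0.480). Counting error alone put the read ratio at 0.865 to 0.919 (95% interval), which is narrower than the limma interval. After quantile normalization the log2 fold change was -0.0094. The exons of Ctnnb1 share 759 bases with those of Ulk4 on the opposite strand. The library kit does not mark strand, so reads there cannot be assigned, but Ulk4 was at an FPKM of only 0.24 to 0.379.

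Of the TCF/LEF factors, through which beta-catenin acts on its targets, Lef1 had the highest limma-voom fold change of the 10 genes, on few control reads. Lef1 (ENSMUSG00000027985, chromosome 3, 131110471 to 131224356, plus strand) had an FPKM of 0.00585 and 0.0337 in control, against 0.295 and 0.736 in SUV-OE. These values came from 1 and 5 reads in control and from 46 and 115 reads in SUV-OE. The groups were far apart, but the SUV-OE libraries also differed from each other by 2.50 times. Adjusted for depth, the reads gave a ratio of 27.4 (95% exact interval 12.3 to 75.9, counting error only).

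Lef1 rose by limma-voom, with a log2 fold change of 4.71 (SE 0.96, 95% interval 2.44 to 6.97, adjusted p = 0.0383). It reached the minimum of 10 reads through the SUV-OE libraries alone, and it had too low an FPKM for the main test. The call ended when either control library was left out, at 3.66 (limma-voom adjusted p = 0.162) without control replicate 3 and at 5.74 (adjusted p = 0.0914) without control replicate 4. It held without SUV-OE replicate 2 (adjusted p = 0.000376) or 3 (adjusted p = 0.00756), fits in which 1 library stood for a group and was assumed to vary like the other group. On log2(FPKM + 1) with no minimum, its log2 fold change was 0.56 (limma adjusted p = 0.248). Lef1 shares 1208 exon bases with Gm43352 on the opposite strand, which was at 0 in 3 libraries and at 0.0918 in SUV-OE replicate 3.

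Tcf7l2 encodes TCF-4, the main partner of beta-catenin in gut epithelium (ENSMUSG00000024985, chromosome 19, 55741820 to 55933654, plus strand). Its FPKM was 0.188 and 0.210 in control versus 0.509 and 0.405 in SUV-OE, from 32, 31, 79 and 63 reads. The groups were separated and the ratio of mean FPKM was 2.30. The log2 fold change of 1.18 (SE 0.32, 95% interval 0.42 to 1.95) did not pass the threshold (limma-voom adjusted p = 0.0823), and it lay between 1.02 and 1.35 when libraries were left out in turn.

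Tcf7 encodes TCF-1, known for its part in T cell development (ENSMUSG00000000782, chromosome 11, 52252371 to 52283014, minus strand). It was at 0.881 and 0.542 in control, against 0.902 and 1.01 in SUV-OE, from 24 to 47 reads. Here the lowest SUV-OE library was barely above the highest control library, and the log2 fold change was 0.20 (SE 0.18, 95% interval -0.28 to 0.67, limma adjusted p = 0.580). The remaining factor of the family, Tcf7l1, known mainly as a repressor, was at 1.06, 0.513, 0.919 and 0.760, with overlapping groups.

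Summed over the 4 TCF/LEF genes, the FPKM was 2.14 and 1.30 in control versus 2.63 and 2.91 in SUV-OE, a ratio of means of 1.61. Lef1 was 0.274% and 2.60% of it in control versus 11.2% and 25.3% in SUV-OE, while Tcf7l1 was 49.7% and 39.5% in control versus 35.0% and 26.1% in SUV-OE. The shares of Tcf7l2 overlapped between the groups. These sums were set up after the values of the members were seen and were not tested.

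Axin2, a target of beta-catenin and itself a scaffold of the destruction complex, is widely read as a report of pathway activity (ENSMUSG00000000142, chromosome 11, 108920349 to 108950783, plus strand). It had an FPKM of 0.196 and 0.0753 in control, against 0.338 and 0.255 in SUV-OE. Its mean over the 4 libraries was the lowest of the 10 genes, although Lef1 was lower in both control libraries. Its recovered reads were 21 and 7 in control versus 33 and 25 in SUV-OE. The SUV-OE libraries were above the control libraries, but control replicate 3 was nearer to SUV-OE replicate 3 than to the other control. By limma-voom the log2 fold change was 1.20 (SE 0.53, 95% interval -0.05 to 2.45, adjusted p = 0.219), which does not exclude 0. It was 0.57 without control replicate 4 and 1.89 without control replicate 3. Axin2 shares 209 exon bases with Gm11670 on the opposite strand, which was at 0 in 3 libraries and at 0.232 in control replicate 4. Axin1 outnumbered Axin2 in all 4 libraries, with 98.2% to 99.6% of the summed FPKM of the pair.

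Low genes as a class leaned the same way as these scarce members. Of the 1651 genes tested by limma-voom with a mean FPKM under 0.5, 7.21% were called higher in SUV-OE and 1.82% lower, and 45.0% were separated upwards and 14.8% downwards. Lef1, Tcf7l2 and Axin2 belong to that class, and all 3 were separated upwards, with 1 call.

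Regions before the transcription start are shown for the 4 genes whose mean FPKM differed by more than 2 times between the groups. All 4 were higher in SUV-OE, and only Lef1 was called, by limma-voom. H3K9 methylation, the mark set by the protein of Suv39h1, is known to act on such regions and is described in the study as repressive. Each line gives the 250 bases upstream of the first start in RefSeq (GRCm38.p6, the mm10 assembly), 5′ to 3′ on the strand of the gene, with CpG dinucleotides in capitals. No measurement of the mark at these regions was used here, so its part in the values of the 4 genes was not tested.
Lef1, chr3:131110047-131110296, plus strand: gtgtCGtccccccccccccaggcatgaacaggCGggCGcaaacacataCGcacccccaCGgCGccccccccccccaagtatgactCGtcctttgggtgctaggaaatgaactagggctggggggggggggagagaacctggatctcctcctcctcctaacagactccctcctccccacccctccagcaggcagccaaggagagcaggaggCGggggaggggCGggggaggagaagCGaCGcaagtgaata
Tcf7l2, chr19:55741560-55741809, plus strand: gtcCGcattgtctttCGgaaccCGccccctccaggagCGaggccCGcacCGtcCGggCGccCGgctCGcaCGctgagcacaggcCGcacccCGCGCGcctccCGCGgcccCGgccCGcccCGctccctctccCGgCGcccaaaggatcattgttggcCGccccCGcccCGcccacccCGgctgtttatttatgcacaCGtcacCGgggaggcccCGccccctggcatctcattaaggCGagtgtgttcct
Fzd7, chr1:59481897-59482146, plus strand: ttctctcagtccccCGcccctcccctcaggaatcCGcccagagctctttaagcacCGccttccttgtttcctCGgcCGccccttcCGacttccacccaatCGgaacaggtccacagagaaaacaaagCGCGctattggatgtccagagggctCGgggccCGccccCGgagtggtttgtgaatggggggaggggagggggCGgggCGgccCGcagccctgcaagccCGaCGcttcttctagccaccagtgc
Axin2, chr11:108920099-108920348, plus strand: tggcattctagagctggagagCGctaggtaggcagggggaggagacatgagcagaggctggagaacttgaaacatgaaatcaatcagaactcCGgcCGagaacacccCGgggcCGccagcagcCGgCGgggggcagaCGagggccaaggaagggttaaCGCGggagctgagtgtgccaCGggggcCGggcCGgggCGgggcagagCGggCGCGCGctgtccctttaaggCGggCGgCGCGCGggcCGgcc
All 4 windows held more CpG dinucleotides than the median of 6 over the 32851 RefSeq windows of the mouse. There were 11 for Lef1, 30 for Tcf7l2, 17 for Fzd7 and 24 for Axin2. This was not particular to the 4 genes, since the starts of Ctnnb1 held 35 and 43, those of Tcf7 37 and 15 and that of Gsk3b 15, while 2 later starts of Lef1 held 6 and 5.

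RefSeq gave windows for 7 of the 10 genes, with 13 starts in all. The core of the TCF/LEF motif, searched as CTTTGAA and CTTTGAT on both strands over 250 bases before to 50 after the start, was in 0 of these 13 windows and in 8.65% of all windows. Absence of these letters from a window of this length says nothing of binding by the factors, whose sites often lie farther away.

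Because LEF1 is also known from early B cells, Lef1 was set beside a list of 16 B-lineage markers. In 12 of the 16 the SUV-OE values both exceeded the control values, beside 27.8% of all genes tested by limma-voom. In 0 both fell short of them, beside 28.1%. Every one of the 16 was higher in SUV-OE replicate 3 than in replicate 2, with a median ratio of 2.89, near the 2.50 of Lef1. For the other 9 of the 10 genes that ratio was 0.756 to 1.12. Of the 150 other pathway genes tested by limma-voom, 4 had a ratio of at least 2 (Jun, Amer2, Lgr5 and Tnfrsf19, named for this ratio). The median of the 150 was 0.948.

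Vpreb1, a gene of the pre-B cell receptor, was at 0.277 and 0.745 in control, against 6.23 and 19.3 in SUV-OE. Rag1, which cuts immunoglobulin genes for rearrangement, was at 0.07 and 0.143 in control, against 2.09 and 7.32 in SUV-OE. Cd79a, a signaling chain of the B cell receptor, was at 0.635 and 1.10 in control, against 5.49 and 11.7 in SUV-OE. By limma-voom 5 of the 13 B-lineage genes tested were called higher (3.56% of all genes were), and by limma 0 of 12 were, with 10 of those 12 at an unadjusted p under 0.05 (20.7% of all genes). However, 6 of the 13 and 7 of the 12 were under the minimum in control and were tested through the SUV-OE libraries alone. Ms4a1, a marker of mature B cells, stayed at or under 0.0287 in all 4 libraries. The part of B-lineage cells in the Lef1 result was not tested, and in bulk RNA more cells of a type and more RNA per cell cannot be told apart.

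T cells also express Lef1 and Tcf7. Of their defining markers, Cd3e was at 0, 0.0825, 0.0392 and 0.0392, Cd3g at 0, 0.222, 0.105 and 0.0526 and Cd8a at 0, 0, 0.0155 and 0.0155 in the 4 libraries. The list of 19 T and NK cell markers summed to 79.1 and 118.7 in control, against 83.9 and 92.6 in SUV-OE, of which Nkg7 alone held 73.0, 112, 75.5 and 82.3. In that list 7 genes were separated upwards and 2 downwards, untested genes included. Of the 7 genes that limma-voom tested, 3 were separated upwards and 2 downwards, beside 27.8% and 28.1% of all genes in that fit. That fit called 1 of the 7 higher, beside 3.56% of all genes. It was Il7r, the receptor gene of T and early B cells (0.465 and 0.425 in control, 1.44 and 2.45 in SUV-OE, limma-voom adjusted p = 0.0355).

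**Figure D4:**
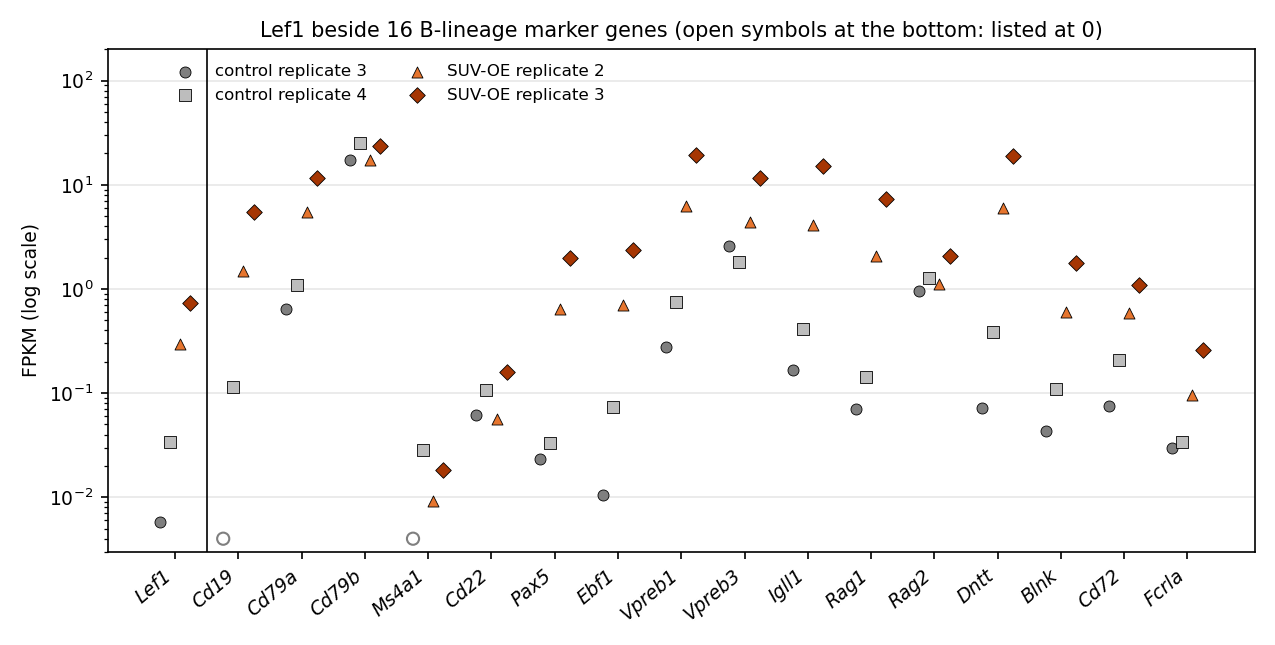
FPKM (log axis) of Lef1 and of the 16 B-lineage marker genes in each library, with 1 symbol per library and open symbols at the bottom for genes listed at 0. Every marker is higher in SUV-OE replicate 3 than in replicate 2, with a median ratio of 2.89, and the ratio of Lef1 is 2.50. The part of B-lineage cells in the Lef1 values was not tested.

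The other genes of the pathway were read from 10 lists written from general knowledge, which hold 211 genes besides the 10, with 192 of them in the table. The main fit tested 128, of which 72 were higher and 56 lower (median log2 fold change 0.03), and 1 was called. At an unadjusted p under 0.05 there were 16 of the 128, beside 20.7% of all genes in the main fit and 24.5% in the limma-voom fit, the shares against which such counts of the separate lists are read. By limma-voom 150 were tested, with a median of 0.06, and 8 were called, all of them higher. That is 5.33%, near the 4.66% of all genes called in that fit. Of the 8, Wnt6 and Apcdd1 had fewer than 10 reads on average in control and reached the minimum through the SUV-OE libraries alone. The number of calls depended on the control libraries, with 2 pathway genes called without control replicate 3 and 4 without control replicate 4. Tcf4 alone of the 8 was called with each of the 4 libraries left out in turn, and Cxxc5, Fzd4 and Apcdd1 in all but the fit without control replicate 3.

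The gene called in both fits was Cxxc5, whose product binds Dishevelled and dampens Wnt signaling. It was at 0.317 and 0.235 in control, against 2.16 and 2.48 in SUV-OE, a ratio of mean FPKM of 8.40, on 14 and 9 reads in control versus 87 and 100 in SUV-OE. Its mean FPKM in control, 0.276, was under the minimum of 0.5, so it entered the main test through the SUV-OE libraries alone. Its log2 fold change was 1.38 (SE 0.16, limma adjusted p = 0.0434), and by limma-voom it was 3.02 (adjusted p = 0.00967). The limma call ended with any library left out, with a log2 fold change from 1.31 to 1.45 and an adjusted p of 0.123 to 0.281.

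Among the ligands limma-voom tested 3 and limma 1, and the 1 gene called was Wnt6, by limma-voom (3.56% of all genes were called higher). It was at 0.188 and 0.189 in control, against 0.848 and 1.13 in SUV-OE (limma-voom log2 fold change 2.30, adjusted p = 0.0354, and limma 0.74, adjusted p = 0.132). Its reads were 8 and 7 in control versus 33 and 44 in SUV-OE, so it reached both minimums through the SUV-OE libraries alone. The call held without SUV-OE replicate 2 and ended without control replicate 3 (limma-voom adjusted p = 0.112), control replicate 4 (0.0705) or SUV-OE replicate 3 (0.111). The other 15 ligand genes of the table stayed at or under an FPKM of 0.374 in every library, and the sum over the 16 was 1.39 and 0.919 in control versus 1.94 and 2.15 in SUV-OE. Wnt10b ran the other way without a test, from 0.374 and 0.229 to 0.0966 and 0.0241, on 17 reads or fewer. For ligand maturation and release, 0 of 8 tested genes were called by limma or limma-voom (0 at an unadjusted p under 0.05 in each), and limma log2 fold changes ran from -0.19 for Vps29 to 0.16 for Tmed5.

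Among regulators of receptor turnover, 0 of 6 were called by limma and 0 of 7 by limma-voom, with 1 and 2 at an unadjusted p under 0.05. The R-spondin receptor gene Lgr6 was at 5.86 and 5.36 in control versus 4.46 and 3.82 in SUV-OE, while the ligand gene Rspo1 was at 4.64 and 3.24 in control versus 5.12 and 5.34 in SUV-OE. Of these, Lgr6 had the lowest limma log2 fold change of the list (-0.37, adjusted p = 0.224) and Rspo1 the highest (0.35, adjusted p = 0.341). Lgr5, a stem cell marker of gut epithelium, had only 3 and 1 reads in control versus 13 and 28 in SUV-OE (limma-voom adjusted p = 0.0523), and it was tested through the SUV-OE libraries alone.

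Of secreted and surface antagonists, the 3 that limma could test were all lower in SUV-OE and none was called (1 at an unadjusted p under 0.05). By limma-voom 2 of 5 were higher and 3 lower, with 3 at an unadjusted p under 0.05, and the 2 higher ones, Apcdd1 and Sfrp4, were tested through the SUV-OE libraries alone. Sfrp4, a secreted Frizzled-related gene named after its values were seen, was at 0.0878 and 0.0675 in control, against 0.546 and 0.320 in SUV-OE, without a call (2.32, limma-voom adjusted p = 0.0591). The most abundant, Igfbp4, was at 37.0 and 28.9 in control, against 22.6 and 20.9 in SUV-OE (log2 fold change -0.57, limma adjusted p = 0.157), and Kremen1, a receptor for Dickkopf proteins, was at 4.27, 4.01, 3.55 and 2.65. The membrane antagonist gene Apcdd1, named here after its values were seen, was called by limma-voom (adjusted p = 0.00445), with 0 reads in both control libraries and 40 and 25 in SUV-OE. Its FPKM there was only 0.161 and 0.10, so no fold is given.

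Among the other destruction complex and cytoplasmic genes, 17 of 32 were higher and 15 lower in the limma fit, with a median of 0.01, and Cxxc5 was the only call. Dact3, which binds Dishevelled, had the lowest log2 fold change at -0.84 (2.91 and 1.86 in control, 1.09 and 0.659 in SUV-OE, limma adjusted p = 0.154). Of nuclear partners of beta-catenin 0 of 24 were called by limma or limma-voom (1 at an unadjusted p under 0.05 in each). Their limma log2 fold changes ran from -0.28 for the co-repressor gene Hdac1 (71.5, 69.4, 56.1 and 59.7) to 0.53 for the co-activator gene Bcl9l (1.79, 1.55, 3.04 and 2.69). By limma-voom Bcl9l had an adjusted p of 0.046 at a log2 fold change of 0.77, under the threshold of 1.

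The list of 32 textbook targets of beta-catenin, of which 27 were in the table, holds Axin2, Lef1 and Tcf7 too. By limma 0 of 16 tested were called, with 6 at an unadjusted p under 0.05 (20.7% of all genes were), and by limma-voom 3 of 22 were called, Lef1, Ccnd1 and Tcf4, beside 4.66% of all genes. In the limma-voom fit 17 of the 22 were higher, and 14 were separated upwards and 3 downwards (27.8% and 28.1% of all genes). An unadjusted p under 0.05 was reached by 11 (24.5% of all genes). Under the read minimum in control were 4 of the 22, beside 527 of all 14281 genes. Targets with a mean FPKM under 0.5 belong to the class of low genes, of which 45.0% were separated upwards and 14.8% downwards. Their median log2 fold change came to 0.19 by limma and 0.48 by limma-voom, both above the medians of all tested genes, -0.02 and -0.01. Both include genes tested through the SUV-OE libraries alone (1 of 16 and 4 of 22), and the differences were not tested.

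Ccnd1, the gene of cyclin D1, was at 0.677 and 0.503 in control, against 1.78 and 1.52 in SUV-OE (limma-voom log2 fold change 1.47, adjusted p = 0.0318, and limma 0.74, adjusted p = 0.116). The limma-voom call ended without control replicate 3 (adjusted p = 0.0871), control replicate 4 (0.0668) or SUV-OE replicate 2 (0.12). Tcf4, a gene of the E-protein family that shares only an alias with the product of Tcf7l2, was named after its values were seen and was at 0.473 and 0.498 in control, against 2.15 and 2.01 in SUV-OE. It was called by limma-voom (log2 fold change 2.10, adjusted p = 0.00277) but not by limma (1.05, adjusted p = 0.0585), which it entered through the SUV-OE libraries alone, its control mean FPKM being 0.485. Myc, the best known of the targets, showed no such separation.

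Myc had an FPKM of 59.2 and 45.4 in control, against 58.8 and 53.6 in SUV-OE, with overlapping groups (log2 fold change 0.11, SE 0.17, 95% interval -0.33 to 0.55, limma adjusted p = 0.742). Sox4 was at 10.5 and 4.61 in control, against 16.9 and 16.2 in SUV-OE (1.13, limma adjusted p = 0.184). By limma-voom it was not called (1.23, adjusted p = 0.0807), except without control replicate 3 (1.84, adjusted p = 0.0368). Jun, an immediate early gene, was at 278 in control replicate 3 and at 22.4, 6.49 and 31.4 in the other 3 libraries, so its log2 fold change of -2.38 (limma adjusted p = 0.386) rested on 1 library.

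In the catenin and adherens junction list, 0 of 5 genes were called by limma and 0 of 9 by limma-voom, with 0 and 1 at an unadjusted p under 0.05. In the planar polarity and calcium branches, which do not act through beta-catenin, 15 of 30 genes were higher and 15 lower by limma, with a median of 0.01. There limma called 0 genes, with 2 at an unadjusted p under 0.05. By limma-voom 1 of 34 was called, the calcium-dependent kinase gene Camk2d, at 0.0526 and 0.0527 in control versus 0.193 and 0.38 in SUV-OE (2.34, adjusted p = 0.0395), also named after its values were seen. That call ended without control replicate 3 (limma-voom adjusted p = 0.15), control replicate 4 (0.106) or SUV-OE replicate 3 (0.0604).

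**Figure D5:**
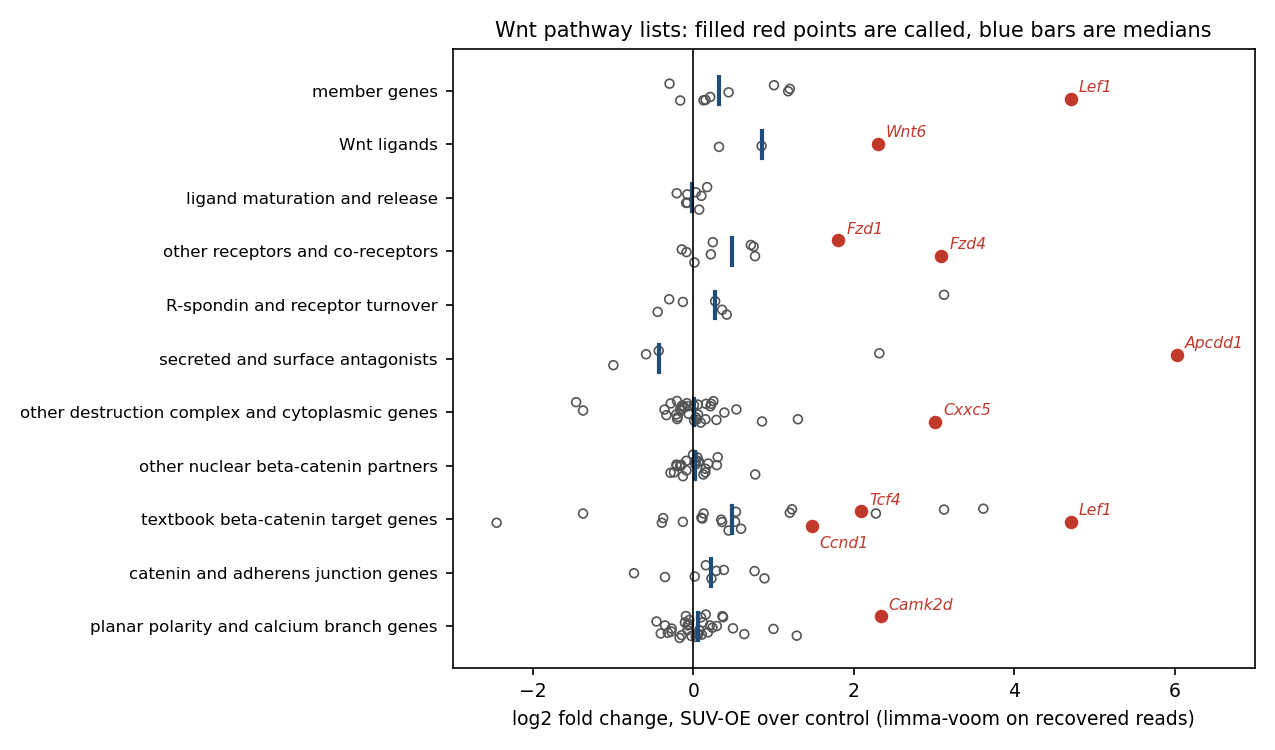
Limma-voom log2 fold change of SUV-OE over control for every tested gene of the 10 pathway genes (top row) and the other lists, with 1 point per gene, called genes filled and named, and blue bars at the list medians. List medians run from -0.43 for antagonists (5 genes tested) to 0.85 for ligands (only 3 genes tested). The called points all lie to the right of 0, and Lef1 appears again among the targets, to which it also belongs.

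Markers of other cells are given beside these results. Their counts stand beside 27.8% of all genes separated upwards, 28.1% separated downwards and 3.56% called higher by limma-voom. Among neutrophil and monocyte markers 14 of 16 were separated upwards in SUV-OE and 1 downwards, and the granule gene Ltf was called (19.9 and 40.3 in control, 212 and 241 in SUV-OE, limma adjusted p = 0.0434), while limma-voom called 8 of the 16 higher. Of 16 stromal and endothelial markers 8 were separated upwards and 0 downwards. Pecam1, which myeloid cells express as well, was called there at 16.7 and 23.3 in control versus 70.3 and 64.1 in SUV-OE (limma adjusted p = 0.0405), while the collagen gene Col1a1 stayed at 0.307 to 0.431. Erythroid and megakaryocyte markers summed to 22.6 and 142.4 in control, against 121.7 and 97.0 in SUV-OE, with 8 of 14 separated upwards, 6 called higher by limma-voom and 0 by limma (7 of 13 at an unadjusted p under 0.05, beside 20.7% of all genes). In each fit 2 of these markers were tested through the SUV-OE libraries alone. Of 12 leukemic progenitor genes 2 were separated upwards and 5 downwards, with a median log2 fold change of -0.10 and 0 called by limma or limma-voom (3 at an unadjusted p under 0.05 in each). The part of other cells in the values of Fzd1, Fzd4, Fzd7, Wnt6 and Cxxc5 was not tested.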

How the data were processed

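RNA-Seq of 2 control and 2 SUV-OE samples of c-Kit+ cells, all labelled as RNA-seq batch 2, was analysed. Libraries were prepared by the authors with an unstranded TruSeq kit, and reads were aligned to mm10 with TopHat2 (CASAVA 1.8 is also named in the submitters' processing notes). The authors deposited FPKM, which the study credits to Cufflinks. The annotation release is not given in the sources used here. The authors name DESeq2, a test for read counts, whereas the deposited unit was FPKM, so limma was used.

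In 78.5% of 23552 genes all 4 FPKM values were whole multiples of 1 read at the GENCODE M21 exon length (tolerance 0.01 reads). A further 4940 genes were whole at another length, and 114 without a gene model were left out of the read fit. The factors by which the authors divided, 16873770 to 19453058, served as library sizes. The recovered reads summed to 20.1% and 24.6% more than these factors in control and to 12.2% and 16.6% more in SUV-OE, so the factors are not the totals of the reads over genes, and the reason was not tested.

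Values were compared as log2(FPKM + 1) with limma 3.58.1 in R 4.3.3 (intensity trend, group as the only term, mean FPKM of at least 0.5), with Benjamini-Hochberg adjustment. A call required an adjusted p under 0.05 with a log2 fold change of 1 or more in either direction. Recovered reads were fitted with limma-voom (mean of at least 10 reads). Both were tested on simulated data, in which only genes with more reads than Lef1, Wnt6, Apcdd1, Fzd4 or Cxxc5 were changed. That test therefore says nothing of calls on so few reads. A count of 3 reads was the floor.

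The members, the 10 other pathway lists and the 6 marker lists were chosen with earlier results of these data known. The level of 1 marker gene is not reported here. Genes named were the members, Suv39h1, Myc, Ccnd1, the Frizzled genes, Tcf7l1, called genes of any list, and the highest and lowest gene of each list by limma. Other genes were named after their values were seen. Promoter windows came from RefSeq (GRCm38.p6) and overlaps from GENCODE M21. Alternatives were another pseudocount (0.1), quantile normalization, no filter, a minimum mean FPKM of 1, median-of-ratios scaling, no trend or a robust trend, an adjusted p under 0.1, no fold threshold, limma-voom, and each library left out in turn. limma-voom without each library was added after seeing the data. ChIP data were not used here.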

Additional observations from a re-analysis of the deposited data

How the results depend on the processing

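No paired analysis was possible because only 1 replicate number, 3, occurs in both groups. Of 98 values of the 10 members over the alternatives, 2 changed sign (both Gsk3b) and 3 missed the threshold (all Lef1). One of these, 0.56 with no filter, is a limma value set against the limma-voom call. Of 428 values of all named genes 13 changed sign, 28 lost an adjusted p under 0.05 and 4 gained one (Wnt6, Fzd1, Bcl9l and Ccnd1, by limma-voom), with causes not tested. The other members were never called, so their calls say nothing of stability. limma-voom gave 666 called genes in place of 168 (148 shared), 8 pathway genes in place of 1 and 1 member in place of 0. It tested 10 members in place of 7, with a median of 0.33. The separated members were then 8 in place of 5 because more members were counted, since separation is read from the FPKM and not from the fit. With no filter on low values 0 genes and 0 pathway genes were called by limma (4177 at an unadjusted p under 0.05), and 8 members were separated. An adjusted p under 0.1 gave 342 genes and 2 pathway genes, and no trend gave 2 pathway genes. With a pseudocount of 0.1 or quantile normalization 0 pathway genes were called, Cxxc5 missing the threshold. Leaving out any library gave 0 to 0 called genes and 0 to 0 pathway genes by limma. By limma-voom the range was 71 to 544 genes, 2 to 9 pathway genes and 0 to 1 members, where control replicate 3 mattered most (71 and 2 called without it). Signs of values near 0 turned when libraries were left out in turn for Gsk3b (-0.0041 to 0.24), Tmed5 (-0.071 to 0.39), Lrp5 (-0.31 to 0.16), Myc (-0.076 to 0.30), Tcf7l1 (-0.17 to 0.28), Fzd5 (-0.016 to 0.26) and, by limma-voom, Fzd9 (-0.50 to 0.21). With quantile normalization they turned for Tcf7l1 (-0.081) and Fzd5 (-0.017). Depth limits Lef1, Axin2, Wnt10b, Wnt6, Fzd4, Cxxc5, Apcdd1 and Lgr5, whose control values rest on 21 reads or fewer a library.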
